A study of Rattus norvegicus with 28 samples.

Results

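Transcripts of 9 genes that act at the intestinal brush border were followed in terminal ileum from newborn rats. Lct, Sis, Slc5a1, Slc15a1, Anpep, Dpp4, Mme, Mep1a and Mep1b were chosen by name, and every probe set of the array that the platform annotation gave to one of them alone was taken. That gave 19 of 8799 probe sets, and 9 of the 4736 genes with a symbol. Of these genes, 8 were found under the listed symbol, and sucrase-isomaltase was found under the symbol Si, which both the platform annotation and RefSeq use for it and which is used from here on. The series addressed how formula feeding with hypoxia acts on the bowel in a rat model of necrotizing enterocolitis, a bowel disease of preterm newborns. Total RNA of the terminal ileum was hybridised to Affymetrix rat arrays, which per the labels were individual arrays. There were 28 arrays in 9 groups. Pups fed formula and stressed with hypoxia 3 times a day were taken at 1, 2, 3 or 4 days of age (3 arrays a day, 12 in all). Breast-fed pups were taken at the same ages (3 arrays a day, 12 in all). Newborns that had not been fed formed the last group (4 arrays, plotted as day 0). The labels used here give no strain, genotype or sex. Formula and hypoxia were given together in every treated pup, so their effects cannot be told apart.

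The brush border is the layer of microvilli on the surface of absorptive enterocytes. Enzymes anchored in it finish the digestion of sugars and peptides, and carriers beside them take up the products. In the suckling rat lactase splits the milk sugar lactose, while sucrase-isomaltase is scarce until weaning, when the diet turns to other carbohydrates. Glucocorticoids and thyroid hormone are known to bring sucrase-isomaltase forward in rat pups, and the CDX, GATA and HNF1 transcription factors are known to bind the promoters of both enzymes.

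Lactase and sucrase-isomaltase are the classical pair whose balance marks the age of the rat gut, so the promoters of both are shown, each with 250 bases before and 50 after the annotated start. The sequences are those of RefSeq on the build GRCr8, where all 9 genes had a promoter entry. The Lct promoter lies on the minus strand at chr13:42376823-42377122 and that of Si on the minus strand at chr2:159884853-159885152. Capitals mark matches on either strand to TTTAT (the letters CDX factors bind), GATA and GTTAAT (a half-site of HNF1).
Lct: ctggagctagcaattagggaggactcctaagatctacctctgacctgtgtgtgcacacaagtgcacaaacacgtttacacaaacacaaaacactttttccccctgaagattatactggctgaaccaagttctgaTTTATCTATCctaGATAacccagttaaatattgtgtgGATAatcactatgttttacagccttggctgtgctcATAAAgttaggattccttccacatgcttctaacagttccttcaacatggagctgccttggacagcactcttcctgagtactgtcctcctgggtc
Si: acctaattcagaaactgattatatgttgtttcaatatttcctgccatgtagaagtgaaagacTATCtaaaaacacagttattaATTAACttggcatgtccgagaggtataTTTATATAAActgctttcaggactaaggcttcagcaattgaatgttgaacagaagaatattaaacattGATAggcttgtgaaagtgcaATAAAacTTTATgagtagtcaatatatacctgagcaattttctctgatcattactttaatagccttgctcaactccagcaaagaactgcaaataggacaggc
The Lct window held 2 matches to TTTAT, the first of them overlapping a GATA match, 4 to GATA and 0 to GTTAAT. The Si window held 4 matches to TTTAT, an adjacent pair of them starting 140 and 135 bases before the start, with 2 to GATA and 1 to GTTAAT. Among 33465 rat promoters of the same length, 42.5% held TTTAT, 60.5% GATA and 7.44% GTTAAT at least once.

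The values are probe set signals, quantile normalised between arrays, and differences are log2(signal + 8) differences, which understate the change of dim genes. Differences were tested with limma on all 28 arrays, and an adjusted p under 0.05 (Benjamini-Hochberg over all genes tested) was called. The filter on dim probe sets kept 14 of the 19 probe sets and 7 of the 9 genes, so that Si and Mme were tested only in a second fit of all 8740 probe sets that are not controls, without a filter. A single probe set per gene, the brightest, entered the first fit of 3185 genes. The files used here hold no detection calls, and levels of different probe sets are not set against each other beyond the choice of the brightest. Where all arrays of one regimen are said to lie above or below all of the other on a day, this describes 3 arrays against 3. It is not a test, and the share of all genes that separate so was not counted. A pair of breast-fed arrays, day 3 replicate 3 and day 4 replicate 2, had lost 69 and 48 of their abundant probe sets, against 0 to 2 on the others, and 0 probe sets of the 9 genes were among those lost on any array. Unfed replicate 2 stood apart in several of the 9 genes and is given with each result it touches. The samples were registered in 2 accession runs of 19 and 9 arrays. In the second run were replicate 3 of formula and hypoxia on day 4, every breast-fed array of day 4, breast-fed day 1 replicate 2 and day 3 replicate 3, and 3 of the 4 unfed arrays, all but replicate 1. Unfed replicate 2 was counted in this run, though its sample number lies apart from the rest of it and its title carries an extra letter b. The labels do not say why. On every array the absorptive enterocyte markers were present: 7 of 8 were on the array and all 7 were above the filter, with a summed signal of 16707 to 32578 under formula and hypoxia, 16055 to 27665 in breast-fed pups and 14204 to 27046 in unfed newborns. In whole ileum, fewer cells of a type and less RNA per cell cannot be told apart.

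Between the regimens, the oligopeptide carrier Slc15a1 was higher under formula and hypoxia for the mean over the 4 days, by a call at the threshold. Sucrase-isomaltase was higher on day 4 by 1 of its 3 probe sets, in the fit of all probe sets. The lactase, aminopeptidase and meprin transcripts did not pass the test. Of the 7 members tested in the fit of 3185 genes, 1 was called for the mean over days 1 to 4, against 11.4% of all genes called in either direction. As a count, 1 of 7 is near the background. The median difference of the 7 members was -0.17 on the log2 scale, against 0.02 over all genes. On the single days 0 of 7 members were called by limma, where 0.283% of all genes were called on day 1, 1.48% on day 2, 2.01% on day 3 and 1.98% on day 4. Marker genes of other cells moved with the regimen over the 4 days: of the fibroblast and matrix markers 3 of 6 tested fell (summed signal 1794 to 5144 under formula and hypoxia and 3446 to 7704 in breast-fed pups), and both goblet cell markers fell (2400 to 6096 and 4676 to 8085). Red cell markers moved the other way, with 2 of 3 tested higher (7204 to 11145 and 4663 to 9674). Of the exocrine pancreas markers 1 of 4 tested was higher, but their summed signal (560 to 1546 and 645 to 1353) had a lower median, 806 against 958. Of the liver markers 1 of 3 tested fell (summed signal 197 to 1623 and 811 to 3838), but the median log2 difference of the 3 was 0.20. With 11.4% of all genes called, 1 of 4 and 1 of 3 say little. Of the absorptive enterocyte markers 0 of 7 tested passed, and of the general epithelial markers 1 of 5 rose, Cldn3. The part of these in the members' values was not tested. At an unadjusted p under 0.05 the number of members was 2 on day 1, 0 on day 2, 2 on day 3 and 1 on day 4. Of the 3185 genes, 291, 326, 528 and 478 were under it on those days.

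**Figure D1:**
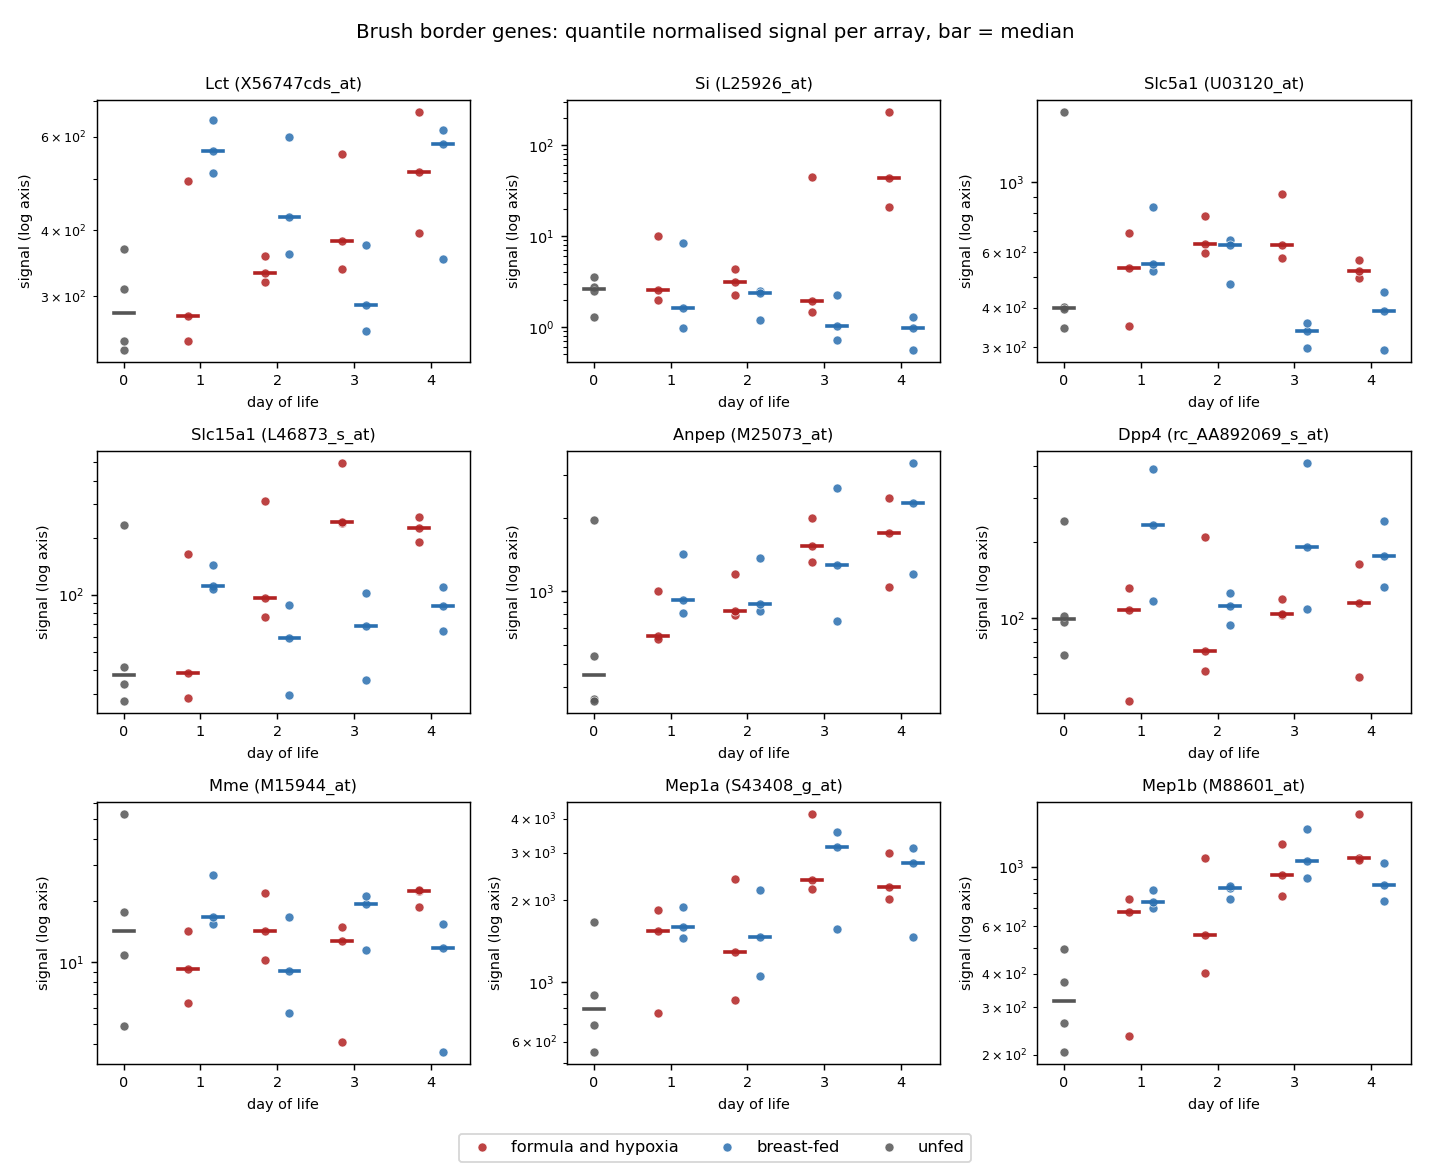
Quantile normalised signal (log axis) of 1 probe set for each of the 9 genes against day of life. Each point is an array and each bar a median, with formula and hypoxia left of breast-fed on days 1 to 4 and the unfed newborns at day 0. On day 4 the 3 Si signals under formula and hypoxia lie between 21.0 and 233, above all 3 breast-fed signals.

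Slc15a1 encodes the proton-coupled carrier (PEPT1) that takes up dipeptides and tripeptides. By the probe set L46873_s_at its signal under formula and hypoxia was 38.7, 28.4 and 164 (day 1), 314, 76.6 and 96.4 (day 2), 498, 240.5 and 242 (day 3) and 189, 224 and 257 (day 4). In breast-fed pups it was 143, 111 and 107 (day 1), 59.4, 29.3 and 88.3 (day 2), 67.9, 35.5 and 102 (day 3) and 64.2, 109 and 86.9 (day 4). The groups overlapped on days 1 and 2, and on days 3 and 4 every array under formula and hypoxia was above every breast-fed one. The mean was 197 ± 132 under formula and hypoxia and 83.7 ± 33.5 in breast-fed pups (SD, n = 12 each). Averaged over days it was 1.90-fold higher (95% confidence interval 1.23 to 2.93, limma adjusted p = 0.0491), with 10 of 12 arrays above that day's breast-fed mean. The call sat at the threshold: it was lost on leaving out any one of 20 of the 28 arrays (highest adjusted p = 0.0980) and with the accession run as a term (log2 difference 1.09, adjusted p = 0.0537). Within the first run alone, days 1 to 3, the log2 difference was 0.87 (adjusted p = 0.139).

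By day, the Slc15a1 difference was -0.94 on day 1, 1.19 on day 2, 2.14 on day 3 and 1.31 on day 4 on the log2 scale. On day 3 it was 4.42-fold (1.85 to 10.5), with a limma adjusted p of 0.0617 that misses the threshold. With 1 array left out at a time the adjusted p ran from 0.0190, without unfed replicate 2, to 0.246, and 26 of 28 such fits did not call it. No unfed array is part of this difference. The change of the difference, day 4 minus day 1, was 2.25 (adjusted p = 0.516). A second probe set, D50664_at, gave 32.1, 63.8 and 49.9 (day 1), 122, 59.4 and 85.1 (day 2), 161, 78.7 and 226 (day 3) and 93.8, 154 and 205 (day 4) under formula and hypoxia. Its breast-fed signals ran over all days from 41.9 to 108. Both probe sets had their highest array on day 3 under formula and hypoxia, replicate 1 for L46873_s_at and replicate 3 for D50664_at, and they correlated across the 28 arrays at r = 0.76. In the fit of all probe sets the mean difference over days was 0.70 for D50664_at (adjusted p = 0.0591) and 0.92 for L46873_s_at (adjusted p = 0.0834), so neither was called there.

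Slc5a1 encodes the sodium-glucose cotransporter SGLT1, which takes up glucose and galactose. Its signal by U03120_at under formula and hypoxia was 537, 350.2 and 689 (day 1), 783.5, 639.9 and 599 (day 2), 916, 632.5 and 574 (day 3) and 569, 498 and 522 (day 4). Breast-fed pups had 835, 525 and 553 (day 1), 657, 475 and 634.5 (day 2), 337.5, 298 and 359 (day 3) and 450.4, 295 and 391 (day 4). Days 1 and 2 overlapped, and on days 3 and 4 all arrays under formula and hypoxia were above all breast-fed arrays. The log2 difference was 1.05 on day 3 (limma adjusted p = 0.176) and 0.49 on day 4 (adjusted p = 0.625). With 1 array left out at a time the day 3 adjusted p ran from 0.0236, without unfed replicate 2, to 0.459, and 27 of 28 such fits did not call it. Over the 4 days the means were 609 ± 144 under formula and hypoxia and 484 ± 165 in breast-fed pups (SD, n = 12 each), a log2 difference of 0.36 (-0.04 to 0.77, adjusted p = 0.244). The second probe set, D16101_s_at, differed by 1.13 on day 3 and 1.00 on day 4 (adjusted p = 0.266 and 0.376 in the fit of all probe sets). In the unfed newborns U03120_at gave 404, 1673, 396.5 and 345, with replicate 2 far above the other 3.

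**Figure D2:**
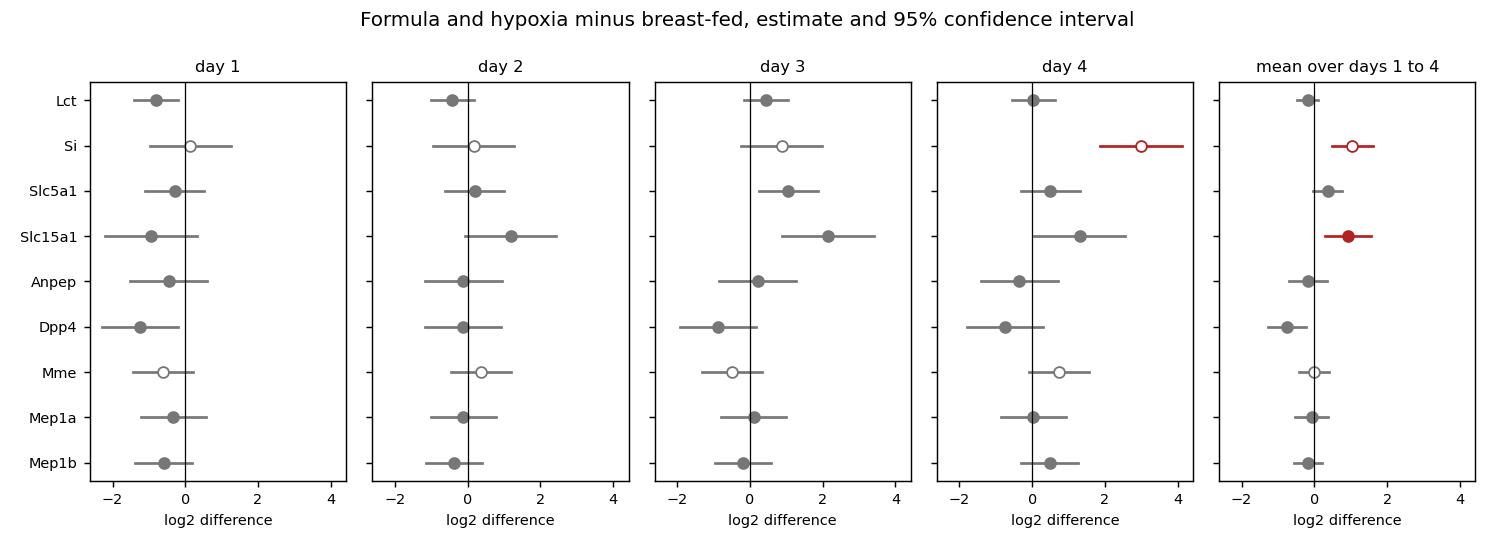
Log2 difference, formula and hypoxia minus breast-fed, with its 95% confidence interval, for each of the 9 genes on days 1 to 4 and as the mean over days. Red marks an adjusted p under 0.05, and hollow points mark Si and Mme, which come from the fit of all probe sets. The called differences are Slc15a1 (0.92) and Si (1.04) for the mean and Si (2.99) on day 4.

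Si, sucrase-isomaltase, splits sucrose and the branched ends of starch. The signal of the probe set L25926_at under formula and hypoxia was 1.97, 10.1 and 2.55 (day 1), 2.25, 3.17 and 4.39 (day 2), 1.93, 1.47 and 44.9 (day 3) and 21.0, 43.4 and 233 (day 4). Among breast-fed pups the signals were 8.41, 0.985 and 1.64 (day 1), 2.50, 2.36 and 1.19 (day 2), 0.729, 2.265 and 1.03 (day 3) and 0.563, 0.985 and 1.28 (day 4). In the unfed newborns it was 2.76, 2.49, 3.585 and 1.28. Thus 4 arrays stood out, all 3 of day 4 and 1 of day 3 under formula and hypoxia, and the other 24 lay at or below 10.1. The filter signal was 24.0, and day 4 replicate 1 under formula and hypoxia, at 21.0, also lay under it. Ranked among the probe sets of its own array, this one lay at percentile 37.2, 53.1 and 84.0 on the 3 day 4 arrays under formula and hypoxia. In breast-fed pups of day 4 it lay at percentile 0.421 to 1.83.

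On day 4 the mean Si signal was 99.2 ± 117 under formula and hypoxia and 0.943 ± 0.362 in breast-fed pups (SD, n = 3 each). In the fit of all probe sets the log2 difference was 2.99 (1.88 to 4.11, limma adjusted p = 0.00478), where 0.847% of all probe sets were called and 1 of the 19 of these genes. The breast-fed signals lie below the pseudocount, so the size depends on it: the difference was 4.42 with a pseudocount of 2 and 1.63 with one of 32, both called. Without formula and hypoxia day 4 replicate 3, the brightest array, it was 2.11 (adjusted p = 0.0325). The breast-fed day 4 arrays were all in the second accession run, where replicate 3 was the only day 4 array under formula and hypoxia. With the run as a term the difference was 3.32 (adjusted p = 0.0102), and in the second run alone it was 4.82, resting on 1 array against 3. Over the 4 days the difference was 1.04 (adjusted p = 0.0218, 10 of 12 arrays above that day's breast-fed mean), where 5.81% of all probe sets were called. In the first run alone, which holds days 1 to 3 of that comparison, it was 0.34 (adjusted p = 0.649). An exact two-sided permutation of the regimen labels within days gave p = 0.00919 over days 1 to 4 (160000 arrangements, Si only), p = 0.015 over days 3 and 4 and p = 0.4 over days 1 and 2. The gene, the probe set and the split of days were taken with the values known. These p-values take no account of that choice or of the accession run, so no conclusion is drawn from them. The change of the difference from day 1 to day 4 was 2.85 (limma adjusted p = 0.252).

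A pair of further Si probe sets was dimmer over all 28 arrays. L25926_at was the brightest of the 3 through the arrays where it was high, so its choice drew on the values compared. Without formula and hypoxia days 3 and 4, its mean log2(signal + 8) was 3.39, below the 3.48 of M62889_s_at. M62889_s_at ran from 1.47 to 11.3 over all 28 arrays, with 2.67, 11.3 and 8.34 on day 4 under formula and hypoxia. X15546cds_s_at ran from 0.586 to 14.6, with 2.05, 0.908 and 14.6 on those arrays. The highest value of each lay on a day 4 array under formula and hypoxia, on replicate 2 for the one and on replicate 3 for the other. Neither was called on day 4 against breast-fed pups (log2 differences 0.29 and 0.50, limma adjusted p = 0.547 and 0.275). Across the arrays they correlated with L25926_at at r = 0.54 and 0.75.

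**Figure D3:**
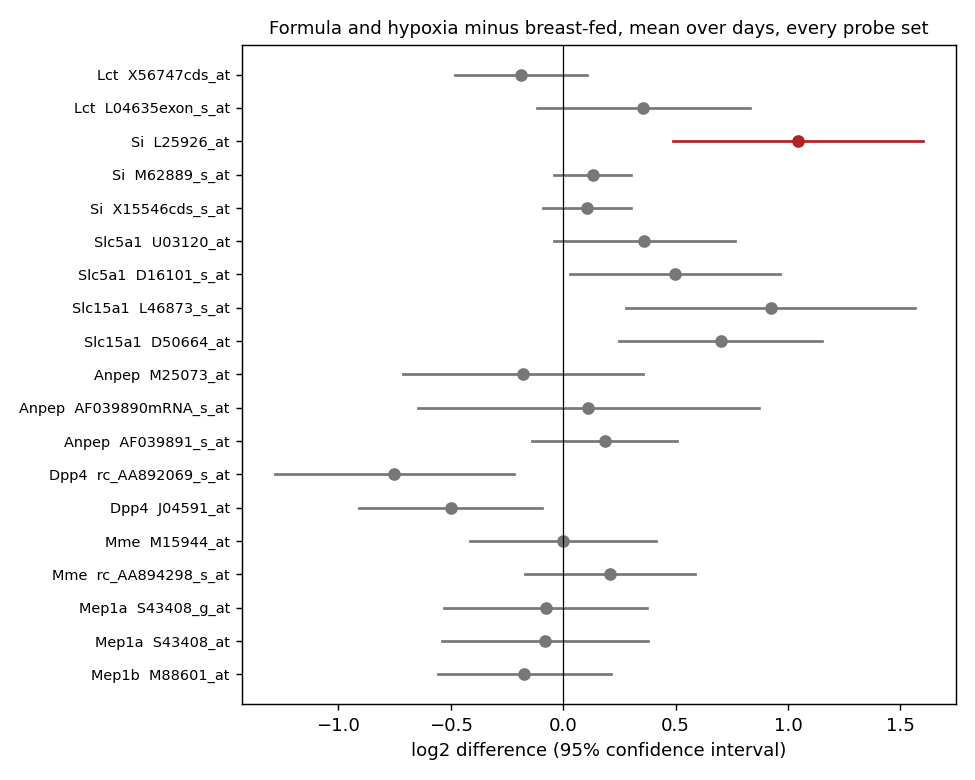
Log2 difference, formula and hypoxia minus breast-fed, mean over days 1 to 4, with its 95% confidence interval, for each of the 19 probe sets in the fit of all probe sets. Red marks an adjusted p under 0.05, which only Si L25926_at (1.04) reached. Both Slc15a1 probe sets (0.92 and 0.70) lie above 0 and both Dpp4 probe sets (-0.75 and -0.50) below it, while those of Lct and Anpep lie on both sides.

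Lct, lactase, was bright from birth. With X56747cds_at, the signal under formula and hypoxia was 247, 275 and 495 (day 1), 319, 333 and 358 (day 2), 556, 381 and 338 (day 3) and 395, 514 and 669 (day 4). The breast-fed signals were 565, 644 and 514 (day 1), 423, 599 and 361 (day 2), 376, 259 and 289.5 (day 3) and 581, 617 and 353 (day 4). On days 1 and 2 every array under formula and hypoxia was below every breast-fed one, and on days 3 and 4 they overlapped. The log2 difference was -0.81 on day 1 (-1.41 to -0.21, limma adjusted p = 0.377), -0.42 on day 2, 0.44 on day 3 and 0.03 on day 4. Over the 4 days the means were 407 ± 126 under formula and hypoxia and 465 ± 137 in breast-fed pups (SD, n = 12 each), a difference of -0.19 (-0.49 to 0.11, adjusted p = 0.438). A dim second probe set, L04635exon_s_at, differed by 0.36 the other way (adjusted p = 0.417 in the fit of all probe sets), and the pair correlated at r = 0.35.

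Dpp4 encodes dipeptidyl peptidase 4, which removes dipeptides from proline-rich peptides and is also carried by T cells. By the probe set rc_AA892069_s_at its signal under formula and hypoxia was 46.8, 108 and 131 (day 1), 209.7, 74.0 and 61.6 (day 2), 103, 119 and 103.5 (day 3) and 58.2, 115 and 163 (day 4). Breast-fed pups gave 392, 117 and 234 (day 1), 125, 93.7 and 112 (day 2), 191, 108 and 413 (day 3) and 133, 176 and 242 (day 4). The regimens overlapped on every day, with the highest values, 413 and 392, in breast-fed pups. The mean was 108 ± 46.4 under formula and hypoxia and 195 ± 109 in breast-fed pups (SD, n = 12 each). The log2 difference was -0.75 (-1.27 to -0.23), with 11 of 12 arrays below that day's breast-fed mean, and the limma adjusted p of 0.0549 missed the threshold. It passed on leaving out any one of 7 arrays, unfed replicate 2 among them (adjusted p = 0.0383). The second probe set, J04591_at, averaged 93.6 ± 31.7 under formula and hypoxia and 145 ± 78.9 in breast-fed pups, a log2 difference of -0.50 (adjusted p = 0.147 in the fit of all probe sets). Markers of lymphocytes and other white cells moved with it: 8 of 10 were on the array, their summed signal was 412 to 974 under formula and hypoxia and 657 to 1383 in breast-fed pups, and 3 of the 7 tested fell and 0 rose. Their part in the Dpp4 values was not tested.

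Anpep encodes aminopeptidase N, which trims single residues from the amino end of peptides. Measured by M25073_at, its signal under formula and hypoxia was 649, 632 and 996 (day 1), 1177, 792 and 829 (day 2), 1988, 1537 and 1314 (day 3) and 1039, 1737 and 2420 (day 4). The signals of breast-fed pups were 1416, 918 and 813 (day 1), 827, 1363 and 886 (day 2), 1272, 754 and 2662 (day 3) and 3371, 2305 and 1177 (day 4). The regimens overlapped on every day, and both had their highest arrays on days 3 and 4. The mean difference over days was -0.18 (-0.71 to 0.35, limma adjusted p = 0.699). A pair of further Anpep probe sets, AF039890mRNA_s_at (43.3 to 720) and AF039891_s_at (35.3 to 205), followed it poorly, with r = 0.29 and -0.30 across the 28 arrays. Mme encodes neprilysin, an endopeptidase of small peptides. It averaged by M15944_at 14.3 ± 6.20 under formula and hypoxia and 14.4 ± 6.54 in breast-fed pups (SD, n = 12 each), below the filter signal, with its highest value, 53.2, in unfed replicate 2.

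Mep1a and Mep1b encode the alpha and beta subunits of meprin, a metalloprotease of the brush border. Mep1a by S43408_g_at gave 769, 1537 and 1836 (day 1), 2395, 1285 and 855 (day 2), 2378, 4176 and 2199 (day 3) and 2999, 2020 and 2247 (day 4) under formula and hypoxia. Breast-fed pups showed 1885, 1454 and 1588 (day 1), 1468, 1051 and 2177 (day 2), 3151, 1564 and 3564 (day 3) and 1468, 3122 and 2749 (day 4). The regimens overlapped on every day, with a mean log2 difference of -0.08 (-0.52 to 0.37, limma adjusted p = 0.865). Mep1b gave 234, 756 and 676 (day 1), 1071, 555 and 403 (day 2), 778, 1209 and 933.5 (day 3) and 1080, 1059 and 1571 (day 4) under formula and hypoxia. In breast-fed pups it was 815, 704 and 741 (day 1), 829, 760 and 846 (day 2), 1051, 905 and 1377 (day 3) and 746, 1033 and 852.5 (day 4). On day 4 all arrays under formula and hypoxia were above all breast-fed ones, and on the earlier days the regimens overlapped. The mean log2 difference was -0.17 (-0.56 to 0.21, adjusted p = 0.591).

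On day 1 all 7 members tested lay lower under formula and hypoxia than in breast-fed pups, from -0.30 for Slc5a1 to -1.26 for Dpp4 on the log2 scale, with a median of -0.60 against 0.06 over all genes. Of all genes, 55.8% lay above 0 on that day. None of the 7 members was called by limma (adjusted p = 0.377 to 0.866). By day 4 the median was 0.04 against 0.01 over all genes. The change of the difference from day 1 to day 4 was above 0 in 7 of 7 members, from 0.10 for Anpep to 2.25 for Slc15a1, against 46.8% of all genes. This change contains the day 1 difference with its sign turned, so its count is not a separate observation from that of day 1. The members were measured on the same arrays, so such counts are not counts of independent replicates. Deviations from the group means correlated at r = 0.82 between Mep1a and Mep1b, for example. The change from day 1 to day 4 was called in 0 of 7 members and in 0.157% of all genes, with 1 member and 225 genes at an unadjusted p under 0.05. An F test for unequal differences over the 4 days called 0 of 7 members, against 0.0942% of all genes, with 2 members and 236 genes at an unadjusted p under 0.05.

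Against the unfed newborns, both meprin subunits and aminopeptidase N were higher on day 4 in both regimens, and lactase and Slc15a1 under formula and hypoxia. Under formula and hypoxia 5 of 7 members rose and 0 fell, against 18.9% of all genes called in either direction and 9.64% called higher, with a median of 1.42 for the members and 0.03 for all genes. In breast-fed pups 3 of 7 rose and 0 fell, against 8.54% of all genes called in either direction and 5.59% called higher, with medians of 0.79 and -0.01. These counts rest on single arrays: under formula and hypoxia 3 members were called without day 4 replicate 1, 2 without day 4 replicate 2 or 3 or without unfed replicate 3 or 4, and 1, Mep1b, without unfed replicate 1. In breast-fed pups 0 were called without day 4 replicate 2 or without unfed replicate 1, and 1 without unfed replicate 3. Breast-fed day 4 replicate 2 was an array that had lost abundant probe sets (48 of 757), so the breast-fed calls depended on it. Cell type markers moved with these rises. Under formula and hypoxia 4 of 6 smooth muscle markers rose, with a median of 1.34 and a summed signal of 10493 to 14034 on day 4, against 3917 to 7102 in unfed newborns. General epithelial markers rose in 3 of 5 (14199 to 17636 against 6429 to 11360), and of the absorptive enterocyte markers 3 of 7 rose and 1 fell. Of the goblet cell markers 1 of 2 rose, and of the red cell and fibroblast markers 1 of 3 and 1 of 6 fell. Breast-fed pups had 2 of 6 smooth muscle markers (8101 to 12806 on day 4), 2 of 5 epithelial, 3 of 7 enterocyte, 1 of 2 goblet cell and 1 of 6 fibroblast markers higher, and 1 of 7 enterocyte and 1 of 3 red cell markers lower. The part of these markers in the members' rises was not tested. Mep1b in the unfed newborns was 205, 493, 262 and 372, below every day 4 array of either regimen. It rose 3.78-fold under formula and hypoxia (2.29 to 6.25, limma adjusted p = 0.000564) and 2.71-fold in breast-fed pups (1.64 to 4.48, adjusted p = 0.0125). Mep1a, at 551, 1669, 693 and 891 in unfed newborns, rose 2.73-fold under formula and hypoxia (adjusted p = 0.0140) and 2.66-fold in breast-fed pups (adjusted p = 0.0320). Its highest unfed array, replicate 2, overlapped the breast-fed day 4 arrays and no day 4 array under formula and hypoxia.

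Anpep in the unfed newborns was 359.7, 1950, 352 and 540.1. It rose 2.68-fold under formula and hypoxia (limma adjusted p = 0.0394) and 3.42-fold in breast-fed pups (adjusted p = 0.0234). These values are of M25073_at, and the other 2 Anpep probe sets were not called: AF039890mRNA_s_at differed by 0.07 and 0.15 on the log2 scale and AF039891_s_at by -0.30 and -0.46. Slc15a1 in the unfed newborns was 33.8, 234, 27.5 and 41.5. It rose 3.54-fold under formula and hypoxia (1.57 to 7.98, adjusted p = 0.0271), while in breast-fed pups the log2 difference was 0.52 (-0.66 to 1.69, adjusted p = 0.617). Lct in the unfed newborns was 310.2, 369, 238 and 247.5. It rose 1.77-fold under formula and hypoxia (1.20 to 2.62, adjusted p = 0.0349), against a log2 difference of 0.79 in breast-fed pups (adjusted p = 0.0693). Unfed replicate 2 was the highest of its group in each of these genes and in Dpp4 and Slc5a1. Without it the same 5 members were called under formula and hypoxia, and Lct was called beside the other 3 in breast-fed pups (0.91, adjusted p = 0.0389). In the fit of all probe sets Mep1a and Mep1b were called in both regimens and Anpep in breast-fed pups (adjusted p = 0.0368), while under formula and hypoxia the same probe sets of Anpep (adjusted p = 0.0664), Lct (0.0510) and Slc15a1 (0.0502) missed the threshold and D50664_at of Slc15a1 was called (1.58, adjusted p = 0.0157). By their brightest probe sets Slc5a1 and Dpp4 were called in neither regimen, with log2 differences under formula and hypoxia of -0.06 and -0.14 and in breast-fed pups of -0.56 and 0.60. The second Dpp4 probe set, J04591_at, was called in breast-fed pups in the fit of all probe sets (1.35, adjusted p = 0.0374). With it, 4 of the 19 probe sets were called in breast-fed pups in that fit. Mep1a has 2 probe sets, S43408_g_at and S43408_at (r = 0.93 across the 28 arrays), and not both were among these.

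The 2 day 4 comparisons share the unfed arrays, so their likeness is not independent, and whether their sizes differ is the day 4 difference between the regimens given above. Si differed from the unfed newborns by 2.76 under formula and hypoxia (limma adjusted p = 0.00123 in the fit of all probe sets, where 8.96% of probe sets were called) and by -0.23 in breast-fed pups (adjusted p = 0.858, where 4.35% were called). On unfed replicate 2 the enterocyte markers Fabp1 (7647 against a group median of 3489) and Apoa4 (6110 against 1837) and the epithelial marker Epcam (5700 against 1980) were high too, and the goblet cell markers Tff3 (2166 against 5146) and Muc2 (73.4 against 214) were low. Their part in these values was not tested. Within the second accession run alone, which holds 1 day 4 array of formula and hypoxia, 3 of breast-fed pups and 3 unfed ones, 0 of the 7 members above the filter were called in either comparison. Si there differed by 4.63 under formula and hypoxia (adjusted p = 0.00017) and by -0.19 in breast-fed pups (adjusted p = 0.567), in the fit of all probe sets. There Mep1b differed by 2.07 under formula and hypoxia (adjusted p = 0.234) and by 1.25 in breast-fed pups (adjusted p = 0.122).

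**Figure D4:**
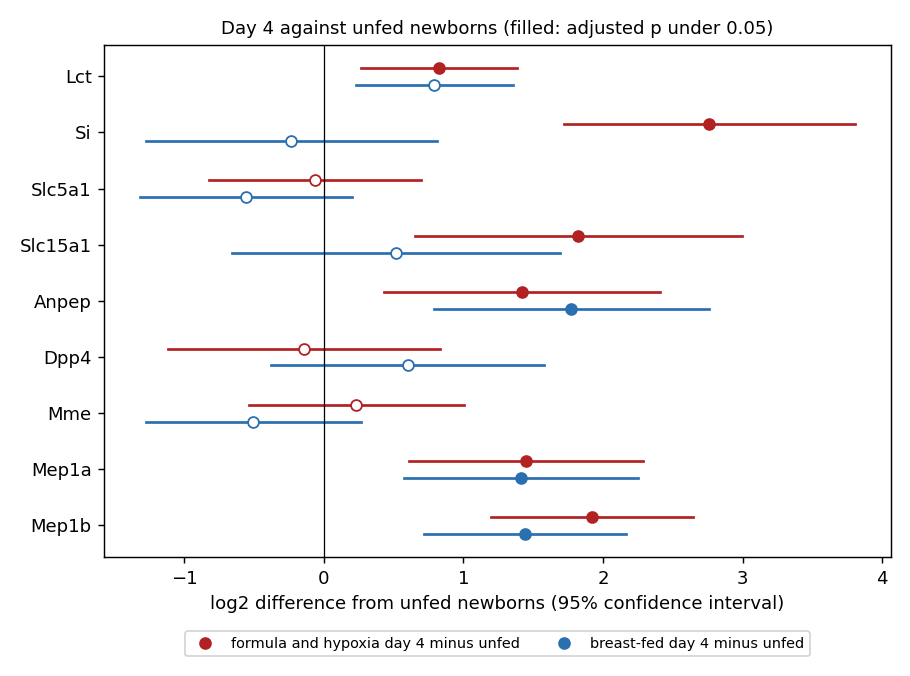
Log2 difference of day 4 from the unfed newborns, with its 95% confidence interval, for each of the 9 genes, formula and hypoxia above breast-fed. Filled points have an adjusted p under 0.05, and Si and Mme come from the fit of all probe sets. Mep1a, Mep1b and Anpep are filled in both regimens, and Lct, Slc15a1 and Si under formula and hypoxia.

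By the end of day 1 no member had passed the test against the unfed newborns in either regimen. Under formula and hypoxia 0 of 7 were called by limma, against 0.408% of all genes, and 0 members reached an unadjusted p under 0.05. In breast-fed pups 0 of 7 members and 0% of all genes were called, while 3 members and 186 genes reached an unadjusted p under 0.05. The log2 differences of breast-fed day 1 from unfed were above 0 in all 7 members, which share their arrays, against 48.9% of all genes. The most was for Mep1b (1.23, limma adjusted p = 0.343) and Lct (0.98, adjusted p = 0.336). Between day 1 and day 4 under formula and hypoxia, Mep1b rose 2.44-fold (1.43 to 4.17, adjusted p = 0.0248), the 1 member of 7 called, against 13.4% of all genes. Formula and hypoxia day 1 replicate 1, at 234, was far below the other 2 day 1 arrays, and without it the log2 difference of Mep1b was 0.76 (adjusted p = 0.193), against 1.29 with it. Slc15a1 followed with 1.79 (adjusted p = 0.0510) and Anpep with 1.13 (adjusted p = 0.148). Si differed by 2.52 over the same days (adjusted p = 0.00758 in the fit of all probe sets, where 5.51% were called), and by 1.64 within the first accession run (adjusted p = 0.0915). In breast-fed pups 0 of 7 members were called between day 1 and day 4, against 0.314% of all genes, with 0 members and 541 genes at an unadjusted p under 0.05.

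Other genes of the brush border were counted from lists, again for formula and hypoxia against breast-fed pups over the 4 days. Of 16 further hydrolases 7 were tested, and 0 rose and 1 fell, with a median of -0.38 against 0.02 over all genes. Since 11.4% of all genes were called in either direction, 1 of 7 is near the background. The one that fell was Dpep1, a dipeptidase (log2 difference -0.55, limma adjusted p = 0.0330). Of 28 further transporters 15 were tested, and 3 rose and 0 fell, with a median of 0.06. These were Slc2a5, the fructose carrier GLUT5 (1.25, adjusted p = 0.000343), Slc9a3, a sodium-proton exchanger (1.06, adjusted p = 0.00115), and Slc19a1, the reduced folate carrier (0.38, adjusted p = 0.0395). On day 2 Slc2a5 differed by 2.36 (adjusted p = 0.00370) and Slc9a3 by 1.84 (adjusted p = 0.0159), and on day 4 Slc11a2, the iron carrier DMT1, was lower by -1.18 (adjusted p = 0.0364).

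Of 16 genes of microvillus structure and its receptors, 6 were tested, and 0 rose and 1 fell, also near the share over all genes. It was the endocytic receptor Lrp2 (log2 difference -0.70, limma adjusted p = 0.00238). The median was -0.15. Of 17 intestinal transcription factors 8 were tested, and 3 rose and 0 fell, with a median of 0.05. These were Klf9, which glucocorticoids and thyroid hormone are known to induce (1.34, adjusted p = 0.000789), Foxa3, a forkhead factor (0.85, adjusted p = 0.0330), and Klf4, a factor of differentiating epithelium (0.65, adjusted p = 0.00347). Klf9 differed most on day 3 (2.56, adjusted p = 0.00401) and Klf4 on day 4 (1.52, adjusted p = 0.00364). Against unfed newborns on day 4 under formula and hypoxia, Klf9 (1.81) and Klf4 (1.78) rose and Hnf4a, a nuclear receptor of the enterocyte, fell (-1.34). In breast-fed pups 0 of these 8 factors were called, against 8.54% of all genes.

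Of the 7 further hydrolases, 1 was called on day 4 against unfed newborns in breast-fed pups, where 8.54% of all genes were called. It was Alpi, the intestinal alkaline phosphatase (log2 difference 1.43, limma adjusted p = 0.0447). Under formula and hypoxia 0 of the 7 were called, against 18.9% of all genes. The median of the 7 was 0.98 in breast-fed pups and 1.01 under formula and hypoxia, so the calls do not set the regimens apart. Of the 15 further transporters, Slc6a6, a taurine carrier, rose under formula and hypoxia (1.73, adjusted p = 0.00214) and in breast-fed pups (1.23, adjusted p = 0.0389). So did Slc5a6, a vitamin carrier (0.92, adjusted p = 0.00289, and 1.04, adjusted p = 0.00330). Slc2a2, the facilitative glucose carrier GLUT2, fell under formula and hypoxia (-2.01, adjusted p = 0.0213), and Slc11a2 rose in breast-fed pups (1.15, adjusted p = 0.0112).

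Among themselves, the 2 meprin subunits followed each other most closely, with r = 0.93 over the 9 group means and r = 0.82 over the deviations of the 28 arrays from their group means. Anpep followed Mep1a (r = 0.92) and Mep1b (r = 0.86) over the group means. Slc5a1 and Slc15a1 had r = 0.78 over the deviations, and r = 0.65 without the unfed arrays. All these values come from the same libraries. The other genes whose 9 group means were most like a member's were Emp1 (r = 0.92) and Abcc2 (r = 0.91) for Slc15a1, Dnah9 and Cckbr (r = 0.95 each) for Slc5a1, and Hif1a (r = 0.90) and Pakap (r = 0.89) for Lct. For Anpep they were Rplp1l3 (r = 0.98) and Sparcl1 (r = 0.97), and for Dpp4 Hnrnpa3 and Cd53 (r = 0.90 each). For Mep1a they were Tpm1 (r = 0.98) and Sdcbp (r = 0.97), and for Mep1b RT1-A and Slc44a4 (r = 0.96 each). With 9 points chosen from 3185 genes, such values describe these arrays alone.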

How the data were processed

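The authors deposited 1 probe set intensity per probe set and array on a linear scale. From the values, 26 of 28 arrays were scaled to a trimmed mean of 150.2 to 150.5, and the others had 109.2 (breast-fed day 1 replicate 2) and 209.2 (breast-fed day 4 replicate 1). Which software, background correction and summary made them is not given in the sources used here. The number of arrays limits the precision. The intensities were quantile normalised, 8 was added and log2 taken. Probe sets whose mean was above the 40th percentile (a signal of 24.0) were kept, and the brightest was used per gene. limma 3.58.1 in R 4.3.3 fitted 9 group means to 28 arrays (19 residual degrees of freedom, intensity trend, two-sided tests, Benjamini-Hochberg adjustment over all genes tested). A fit of every probe set without the filter described the remaining probe sets. The procedure was tested on simulated data. Groups and replicate numbers came from titles and descriptions, and p-values measure the spread between these pups' arrays. The members, the gene lists and the tests were chosen with earlier results of these data known. Named genes are the members, up to 4 called genes per list and comparison with the largest change, and the 2 genes most like each member. Alternatives covered scaling, pseudocount, filter, probe set choice, accession run, array weights, trend, samples fitted, the replicate block and each left-out array. The fit in the second accession run alone and all Si alternatives were chosen after seeing the data. Promoter sequences came from RefSeq (GRCr8).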

Additional observations from a re-analysis of the deposited data

Results flagged for a closer look

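In the unfed newborns, Slc5a1 by the probe set U03120_at was 1673 in replicate 2 and 404, 396.5 and 345 in the other 3. The gap between replicate 2 and the nearest of the others was 0.901 of the group's whole range, taken on the log2 scale, above Dixon's 95% critical value for 4 samples. It was the 1 of the 19 probe sets examined in the unfed group that stood out so, where chance alone picks out about 1 in 20 groups.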

How the results depend on the processing

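The counts of members called rest on values near the threshold, 3 or 4 arrays a group and signals without detection calls, so a count of 0 on a single day says little. For the mean over days (1 member called), 0 were called with the deposited scaling, a pseudocount of 2, 1 test per probe set, the accession run as a term, the first run alone, no intensity trend or the replicate block, and 2 with array weights. For single days (0 called), 1 was called on day 3 with a pseudocount of 32, 1 on day 4 with no filter (Si), and 1 on day 1 and 1 on day 3 with array weights. With array weights 2 were called for breast-fed day 1 against unfed. For formula and hypoxia day 4 against unfed (5 called), there were 2 with a common median, 3 in the first run, 0 in the second run (1 array against 3), 2 with the replicate block and 2 with only the groups compared. For breast-fed day 4 against unfed (3 called), there were 0 in the second run, 0 without the 2 arrays that lost probe sets, 1 with the replicate block and 0 with only the groups compared. For formula and hypoxia day 4 against day 1 (1 called), there were 0 with the deposited scaling, a common median, the run as a term or the first run alone, 2 with a pseudocount of 32, no filter, a 60th percentile filter or without the 2 arrays, and 5 with array weights. Leaving out 1 array at a time gave 0 to 2 for the mean, 0 to 2 on day 3, 1 to 5 and 0 to 4 for formula and hypoxia and for breast-fed day 4 against unfed, 0 to 3 for formula and hypoxia day 4 against day 1, and 0 in the other comparisons. The lowest of these for both day 4 comparisons came without unfed replicate 1 (for breast-fed pups also without their day 4 replicate 2), where of the 5 members only Mep1b was called under formula and hypoxia. No called difference changed sign under any alternative.

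The Slc15a1 difference over days ran from 0.75 to 1.09 over 42 alternatives (adjusted p 0.0153 to 0.139) and was called in 13, and that of Dpp4 from -0.88 to -0.63 (0.0120 to 0.198) and was called in 9. The arrays whose removal kept the Slc15a1 call were formula and hypoxia day 1 replicates 1 and 2 and day 2 replicate 2, breast-fed day 2 replicate 3 and day 3 replicate 3, and unfed replicates 1 to 3. Mep1b on day 4 against unfed under formula and hypoxia was called in 42 of 42 (1.52 to 2.33) beside the second run alone. Si on day 4 was called in 38 of 38 (1.63 to 4.42) beside the second run alone. Same-numbered arrays did not deviate together (12 pairs, correlation -0.13 to 0.086, 0 pairs over 0.1), so the numbers were not taken as pairs and the replicate block results above are values only.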
